A study of Homo sapiens with 9 samples.

Results

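The genes that place, remove and read methyl groups on histones, together with the Polycomb complexes and the DNA methyltransferases, were examined in prostate cancer cells after siRNA treatment. They were chosen by symbol: the KDM genes followed by a number, the KMT2, KMT5 and SETD genes, the subunits of both Polycomb repressive complexes (PRC1 and PRC2) named in the rule, the CBX genes, the H3K9 methyltransferases, *DOT1L*, *NSD1* and the DNA methyltransferases. This rule gave 65 of the 19918 gene symbols in the files. Of these, 62 passed the filter on low counts and were tested. The remaining members, *RING1*, *EHMT2* and *KDM4E*, were listed at 0 in all 9 libraries.

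VCaP is an established prostate cancer cell line that carries the androgen receptor. Its cells were transfected in suspension (reverse transfection, with the lipid reagent RNAiMAX) with 100 pmol of siRNA and collected after 72 h. Against the long non-coding RNA *IGF1R-AS1* the study used si025 and si033, each designed on its exon 1. Libraries of both are labelled as a knockdown in genotype, and the control siRNA libraries as WT. Each of the 3 groups held 3 libraries made from 1.3 µg of total RNA, and all cells, control included, came from the same line and transfection protocol. *IGF1R-AS1* itself was not analysed here, so its level in these libraries is not given. The labels do not say whether the libraries of a group came from separate cultures.

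As background, a histone methyltransferase adds methyl groups to a lysine, a demethylase takes them off, and reader proteins bind the mark. PRC2, with *EZH2* or its paralog *EZH1* as the enzyme, methylates lysine 27 of histone H3 (H3K27). PRC1, whose CBX subunit can read that mark, ubiquitinates histone H2A, and both complexes keep genes silent. Methylation of H3K9 is read by the HP1 proteins *CBX1*, *CBX3* and *CBX5* in condensed chromatin, whereas methylation of H3K4 and H3K36 goes with active promoters and gene bodies. *EZH2* is known as a gene that is highly expressed in advanced prostate cancer and in dividing cells.

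Library totals ranged from 11649811 to 28492259 counts, and the members took 0.684% to 0.781% of them, the lowest share being in si025 replicate 2. That library also differed most from its own group, with a chi-square per degree of freedom of 4.90 and 4.25 against the other si025 libraries, where all other pairs within groups lay between 1.69 and 3.47. In it, tested genes of 6641 exon bases or more sat at a median of -0.09 on the log2 scale relative to the other si025 libraries, and those of 2601 bases or fewer at 0.08. Prostate luminal markers were abundant in all libraries, with 11 of 11 tested and summed levels of 8718 to 8978 CPM (counts scaled to a common library size by TMM) in control, 10490 to 10810 CPM with si025 and 7487 to 7842 CPM with si033. Of the fibroblast markers 2 of 6 were tested, with sums of 17.2 to 19.2, 36.8 to 44.0 and 8.98 to 11.53 CPM in the same order. Most of each sum came from *LUM*, with means of 15.6, 37.1 and 8.4 CPM in that order. *COL1A2*, *COL3A1*, *DCN* and *PDGFRB* did not pass the filter. The endothelial, leukocyte and basal markers summed to at most 4.98 CPM in any library, and *CDH5*, *CD3E*, *CSF1R* and *KRT5* were at 0 throughout. Their part in the results below was not tested. All libraries came from the same cell line, so these sums do not show a second cell type. In bulk RNA, fewer cells in a given state and less RNA per cell cannot be told apart.

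The zeros of *RING1* and *EHMT2* come from a stretch of the files in which most genes are empty. *RING1*, the E3 ligase of PRC1 beside *RNF2*, lies on chromosome 6, 33208509 to 33212722, plus strand, and *EHMT2* (G9a), which methylates H3K9 with *EHMT1*, on chromosome 6, 31879759 to 31897707, minus strand (hg38). Between positions 29000000 and 34000000 of chromosome 6, which holds the major histocompatibility complex, 106 of 168 listed genes (63.1%) had no count in any library, against 91 of 861 (10.6%) on the rest of the chromosome and 15.4% of all other genes. *TUBB*, a main beta-tubulin gene, was at 0 in all libraries and *RPS18*, a ribosomal protein gene, at 0 to 3 counts. A count of 0 for *RING1* or *EHMT2* therefore says nothing about their expression, and why the counts are missing was not tested.

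Per length (RPKM, CPM divided by the exon length in kilobases), the most abundant members in control cells were the HP1 gene *CBX3* with 131 ± 4.98 RPKM (mean ± SD, n = 3), the histone chaperone *RBBP7* with 114 ± 3.72 RPKM, *CBX1* with 91.4 ± 0.409 RPKM and the PRC2 subunit *SUZ12* with 81.6 ± 1.08 RPKM. The median of the tested members was 10.7 RPKM. *EZH2* was at 13.6 ± 0.232 RPKM and *EZH1* at 4.80 ± 0.0190 RPKM. The lowest tested member was the H3K9 demethylase *KDM4D* with 0.781 ± 0.0921 RPKM.

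To see how the set responded to each siRNA, both siRNA groups were compared with control and with each other. With si025, 28 of the 62 tested members fell and 8 rose (adjusted p under 0.05, edgeR quasi-likelihood test). Over all 12810 genes tested, 61.7% were called in this comparison, 32.9% higher and 28.8% lower. The members were thus lower in 45.2% and higher in 12.9% of cases. With si033, 22 members fell (35.5%) and 10 rose (16.1%), where 54.8% of all genes were called, 26.9% higher and 27.8% lower. Under upper quartile normalization, the si033 split became 16 lower and 16 higher. The shares over all genes under that normalization are not given here, so this split has no background beside it. Both comparisons share the control libraries, so they are not independent of each other.

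Fold changes are log2 values from that test throughout, with their standard error (SE). Where a call was lost without certain libraries, each was left out on its own, and the adjusted p given is the highest over all 18 alternatives. The median log2 fold change of the members was -0.13 with si025 and -0.04 with si033, against 0.02 and 0.00 over all genes. Only *KDM4D* was both called and changed by over 2-fold, and this held with either siRNA. Between the siRNAs, 31 members were lower and 13 higher with si025 than with si033, where 60.9% of all genes differed, 29.7% lower and 31.2% higher. The libraries of si025 and control did not overlap for 39 of 62 members and those of si033 and control for 39, against 65.7% and 59.5% of all genes.

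**Figure D1:**
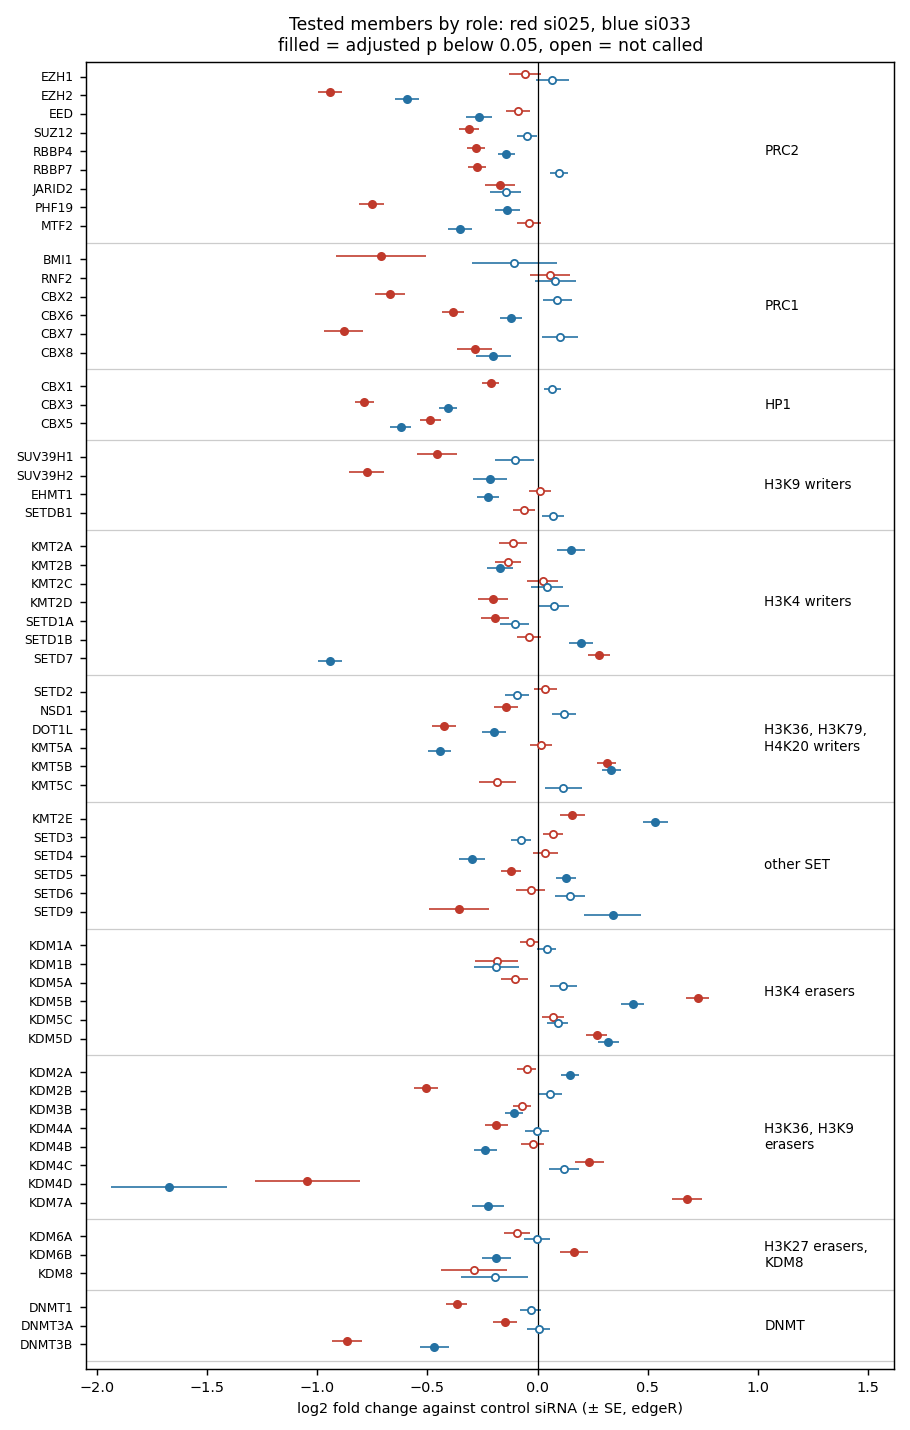
Log2 fold changes of the tested members reported here against control (x axis, ± SE from edgeR) with si025 (red) and si033 (blue), ordered by role; filled points are called and open points are not. *EZH2* (-0.94 and -0.59) and *CBX3* (-0.79 and -0.41) lie on the left with both siRNAs, *KDM5B* (0.73 and 0.43) on the right with both, and *SETD7* (0.28 and -0.94) on opposite sides.

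To describe the sequence in front of these genes, the 250 bases before the start of each gene (RefSeq, GRCh38.p14, first start listed) were searched on both strands for the E-box CACGTG, which reads the same on either strand and is bound by MYC and other basic helix-loop-helix factors. Of the 62 tested members, 57 had an entry, and 11 of these (19.3%) held the word, against 8.87% of 9948 promoters of tested genes and 6.49% of all 27305. For some members, such as *EZH2*, *EED* and *KDM4C*, all 250 bases lay within exons of the same gene in the counting annotation. *KDM4C* is among the 11 with the word. Among members called lower with si025 it was in 6 of 25 (24.0%) and among the rest in 5 of 32 (15.6%). The E2F words TTTCCCGC, TTTGGCGC, TTTCGCGC and TTTGCCGC, typical of cell cycle promoters, were found in 3 of 57 (5.26%, in *EZH1*, *KDM1B* and *SUZ12*), against 4.38% for tested genes. A match is a description and not evidence of binding. Shown are some of the 6 members that fell with si025 and held CACGTG (capitals), 5′ to 3′ on the strand of the gene. *BMI1* and *KMT2D* also held it and are not shown. The stretches of *CBX5* and *RBBP4* end where the exon of the counting annotation begins and that of *CBX6* ends 3 bases into it so that the word is whole, while the counted exons of *NSD1* begin further downstream and its 250 bases are shown in full. *CBX5* (chr12:54280132-54280372, minus strand) and *CBX6* (chr22:38872332-38872466, minus strand) encode readers, *RBBP4* (chr1:32650958-32651147, plus strand) a PRC2 subunit and *NSD1* (chr5:177131548-177131797, plus strand) an H3K36 methyltransferase.
CBX5: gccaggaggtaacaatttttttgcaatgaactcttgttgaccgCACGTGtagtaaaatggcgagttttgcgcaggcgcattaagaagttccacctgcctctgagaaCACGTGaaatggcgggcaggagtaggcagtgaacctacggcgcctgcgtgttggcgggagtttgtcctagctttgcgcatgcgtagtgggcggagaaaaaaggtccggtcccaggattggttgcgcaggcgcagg
CBX6: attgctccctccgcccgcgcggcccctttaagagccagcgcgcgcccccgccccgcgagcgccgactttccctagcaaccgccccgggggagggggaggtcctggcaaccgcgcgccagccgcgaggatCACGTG
RBBP4: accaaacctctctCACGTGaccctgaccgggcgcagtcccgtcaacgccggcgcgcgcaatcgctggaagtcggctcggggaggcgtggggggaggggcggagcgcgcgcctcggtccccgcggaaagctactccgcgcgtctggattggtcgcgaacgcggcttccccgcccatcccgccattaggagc
NSD1: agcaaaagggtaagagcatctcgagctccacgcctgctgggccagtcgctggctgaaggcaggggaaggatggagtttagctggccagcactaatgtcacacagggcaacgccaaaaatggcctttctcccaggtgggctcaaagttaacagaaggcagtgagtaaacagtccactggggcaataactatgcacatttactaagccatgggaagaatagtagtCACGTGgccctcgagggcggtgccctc
*CBX5* held the word at 2 places and the others at 1.

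In PRC2, the enzyme *EZH2* (chromosome 7, 148807372 to 148884662, minus strand) was at 92.0, 89.0 and 91.2 CPM in the control libraries, 43.8, 48.7 and 48.4 CPM with si025 and 59.8, 57.8 and 62.2 CPM with si033. Every siRNA library lay below every control library, and every si025 library below every si033 library. *EZH2* changed on the log2 scale by -0.94 (SE 0.05, adjusted p = 6.17e-13) with si025 and -0.59 (SE 0.05, adjusted p = 1.97e-09) with si033, to 52.0% and 66.3% of control. Between the siRNAs, *EZH2* differed by -0.35 (SE 0.06, adjusted p = 8.49e-06). Its paralog *EZH1*, which forms a PRC2 of weaker methyltransferase activity, was at 22.6, 22.5 and 22.4 CPM in the control libraries, 23.8, 21.3 and 20.3 CPM with si025 and 25.9, 21.9 and 23.2 CPM with si033. The *EZH1* libraries of all groups overlapped, and its log2 fold changes of -0.06 (SE 0.07, adjusted p = 0.515) with si025 and 0.07 (SE 0.07, adjusted p = 0.467) with si033 did not pass the test.

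*EED*, the subunit that binds methylated H3K27 and stimulates the enzyme, was at 51.1, 56.1 and 54.8 CPM in the control libraries, 48.2, 52.7 and 51.3 CPM with si025 and 46.1, 46.0 and 43.5 CPM with si033. The si033 libraries were the lowest and did not overlap control, while si025 did. *EED* fell with si033, its log2 fold change being -0.27 (SE 0.06, adjusted p = 0.000412), and was not called with si025, where it was -0.09 (SE 0.06, adjusted p = 0.173). Between the siRNAs, *EED* differed by 0.18 (SE 0.06, adjusted p = 0.00979), which was not called without si033 replicate 3 (adjusted p up to 0.0799). *SUZ12*, the scaffold of the complex, was at 368, 362 and 371 CPM in the control libraries, 298, 280.1 and 309 CPM with si025 and 336, 368 and 359.9 CPM with si033. Only si025 separated from control. *SUZ12* had a log2 fold change of -0.31 (SE 0.05, adjusted p = 3.10e-06) with si025 and of -0.05 (SE 0.05, adjusted p = 0.386) with si033, the latter not called. The histone-binding subunits *RBBP4* and *RBBP7*, which also serve other complexes, gave -0.28 with si025 and -0.14 with si033 for *RBBP4* (both called lower) and -0.27 with si025 and 0.10 with si033 for *RBBP7* (called lower with si025, adjusted p = 0.0581 with si033). *RBBP4*, like *CBX3*, has processed pseudogenes, and read pairs that map to several places were not counted, so the levels of both are less certain. Whether other members, such as *CBX1* and *SUZ12*, have similar copies elsewhere was not checked.

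Among the accessory subunits, *PHF19*, a reader of methylated H3K36 that brings PRC2 to chromatin, changed on the log2 scale by -0.75 (SE 0.06, adjusted p = 8.90e-11) with si025 and -0.14 (SE 0.06, adjusted p = 0.0397) with si033. With si033 the *PHF19* call was lost without control replicates 2 or 3, or si033 replicates 2 or 3, and under upper quartile normalization or a stricter filter on low counts (adjusted p up to 0.220). *MTF2*, its paralog, had log2 fold changes of -0.04 (SE 0.05, adjusted p = 0.552) with si025 and -0.35 (SE 0.06, adjusted p = 1.00e-05) with si033, only the latter called. *JARID2*, which helps to target the complex, changed on the log2 scale by -0.17 (SE 0.07, adjusted p = 0.0347) with si025, a call that was lost without control replicates 1 or 3, or si025 replicates 2 or 3, and under upper quartile normalization or the DESeq2 Wald test (adjusted p up to 0.144), and had -0.14 (SE 0.07, adjusted p = 0.0818) with si033. *AEBP2* and *LCOR*, other PRC2 accessory genes outside the set, had -0.16 and -0.59 with si025 (both called) and 0.10 (not called) and -0.61 (called) with si033.

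Within PRC1, the H3K27 methylation readers *CBX7*, *CBX2*, *CBX6* and *CBX8* were each called lower with si025, but their calls differed with si033. *CBX7* was at 14.6, 17.4 and 15.8 CPM in the control libraries, 9.11, 8.29 and 8.71 CPM with si025 and 17.6, 16.6 and 17.1 CPM with si033. The si025 libraries were the lowest without overlap, at 54.4% of control, and si033 overlapped control. *CBX7* had log2 fold changes of -0.88 (SE 0.09, adjusted p = 1.05e-08) with si025 and 0.10 (SE 0.08, adjusted p = 0.297) with si033, the latter not called.

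*CBX2* was at 54.1, 63.4 and 56.1 CPM in the control libraries, 37.1, 38.1 and 34.2 CPM with si025 and 65.2, 55.8 and 63.1 CPM with si033, again with si025 alone below control. *CBX2* changed on the log2 scale by -0.67 (SE 0.07, adjusted p = 1.43e-08) with si025, and the si033 value of 0.09 (SE 0.07, adjusted p = 0.262) did not pass. The differences between the siRNAs were -0.98 (SE 0.09, adjusted p = 1.34e-09) for *CBX7* and -0.76 (SE 0.07, adjusted p = 1.59e-09) for *CBX2*.

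*CBX6*, per length the most abundant of the PRC1 readers, was at 167, 159.6 and 153 CPM in the control libraries, 127, 117 and 122 CPM with si025 and 153, 142 and 145 CPM with si033. Both siRNA groups lay below control, si025 the lower of them. *CBX6* changed on the log2 scale by -0.38 (SE 0.05, adjusted p = 3.83e-07) with si025 and -0.12 (SE 0.05, adjusted p = 0.0383) with si033. With si033 it was no longer called without control replicates 1 or 2, or si033 replicates 2 or 3, and under upper quartile normalization or a stricter filter on low counts (adjusted p up to 0.227).

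*CBX8* was at 15.9, 15.4 and 15.1 CPM in the control libraries, 12.3, 12.6 and 12.8 CPM with si025 and 13.5, 12.5 and 13.9 CPM with si033. Both siRNA groups lay below control and overlapped each other. *CBX8* changed on the log2 scale by -0.29 (SE 0.08, adjusted p = 0.00348) with si025 and -0.20 (SE 0.08, adjusted p = 0.0376) with si033, the latter being lost without control replicates 1, 2 or 3, or si033 replicates 1 or 2, and under upper quartile normalization, no filter on low counts, a stricter filter on low counts, the DESeq2 Wald test or a fit of those groups alone (adjusted p up to 0.117).

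For the ring-finger core, *RNF2*, the catalytic ligase, was at 15.4, 19.5 and 15.6 CPM in the control libraries, 18.5, 16.7 and 17.1 CPM with si025 and 15.5, 19.1 and 18.02 CPM with si033. All groups overlapped, and its values of 0.06 (SE 0.09, adjusted p = 0.615) with si025 and 0.08 (SE 0.09, adjusted p = 0.484) with si033 did not pass the test. *BMI1*, the partner of *RNF2* in canonical PRC1, was at only 4.80, 3.99 and 2.78 CPM in the control libraries, 2.02, 2.33 and 2.30 CPM with si025 and 3.13, 4.18 and 3.11 CPM with si033, from 26 to 90 counts per library. The si025 libraries were the lowest, without overlap. *BMI1* changed on the log2 scale by -0.71 (SE 0.20, adjusted p = 0.00439) with si025, and its si033 value was -0.11 (SE 0.19, adjusted p = 0.665). The *BMI1* level is uncertain because 85.8% of its exon bases are shared with the readthrough gene *COMMD3-BMI1* on the same strand, which was at 0 in every library, and pairs over both genes were not counted.

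The other PRC1 genes on a list of 80 further chromatin genes (75 of them in the files, 70 tested) were also read. Of its 13 tested PRC1 genes, 8 were called higher and 0 lower with si025, where 32.9% of all genes were higher, and 4 higher and 2 lower with si033, where 26.9% of all genes were higher and 27.8% lower. *BCORL1*, a corepressor of variant PRC1, had log2 fold changes of 1.16 with si025 and -0.27 with si033, *RYBP*, another variant subunit, 0.34 with si025 and -0.14 with si033, and *PCGF3*, a ring-finger paralog of *BMI1*, 0.41 with si025 and 0.67 with si033, all called. Over all 70 other chromatin genes tested, 14 were higher and 26 lower (37.1%) with si025, and 16 (22.9%) and 19 (27.1%) with si033. Over all genes, 32.9% were higher and 28.8% lower with si025, and the si033 shares were near those of all genes.

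The HP1 proteins bind methylated H3K9. *CBX3* (HP1 gamma, chromosome 7, 26201211 to 26213607, plus strand) was at 406, 429 and 437 CPM in the control libraries, 242, 252 and 243 CPM with si025 and 312, 329 and 319 CPM with si033. All 3 groups separated, control highest and si025 lowest. *CBX3* changed on the log2 scale by -0.79 (SE 0.04, adjusted p = 2.70e-13) with si025 and -0.41 (SE 0.04, adjusted p = 2.44e-08) with si033, to 57.9% and 75.4% of control.

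*CBX5* (HP1 alpha) was at 341, 349 and 350.0 CPM in the control libraries, 267, 234 and 243 CPM with si025 and 214, 231 and 231 CPM with si033. Here si033 gave the lowest levels and control the highest, without overlap. *CBX5* changed on the log2 scale by -0.49 (SE 0.05, adjusted p = 7.83e-09) with si025 and -0.62 (SE 0.05, adjusted p = 2.05e-10) with si033. The difference of 0.14 (SE 0.05, adjusted p = 0.0194) between the siRNAs was lost without si025 replicate 1, or si033 replicate 1 (adjusted p up to 0.149). *CBX1* (HP1 beta) was at 246, 245 and 244 CPM in the control libraries, 207, 214 and 212 CPM with si025 and 255, 259 and 256 CPM with si033. The si025 libraries lay below control and the si033 libraries above it, but only si025 was called, with -0.21 (SE 0.04, adjusted p = 7.28e-05) against 0.07 (SE 0.04, adjusted p = 0.159) for si033.

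**Figure D2:**
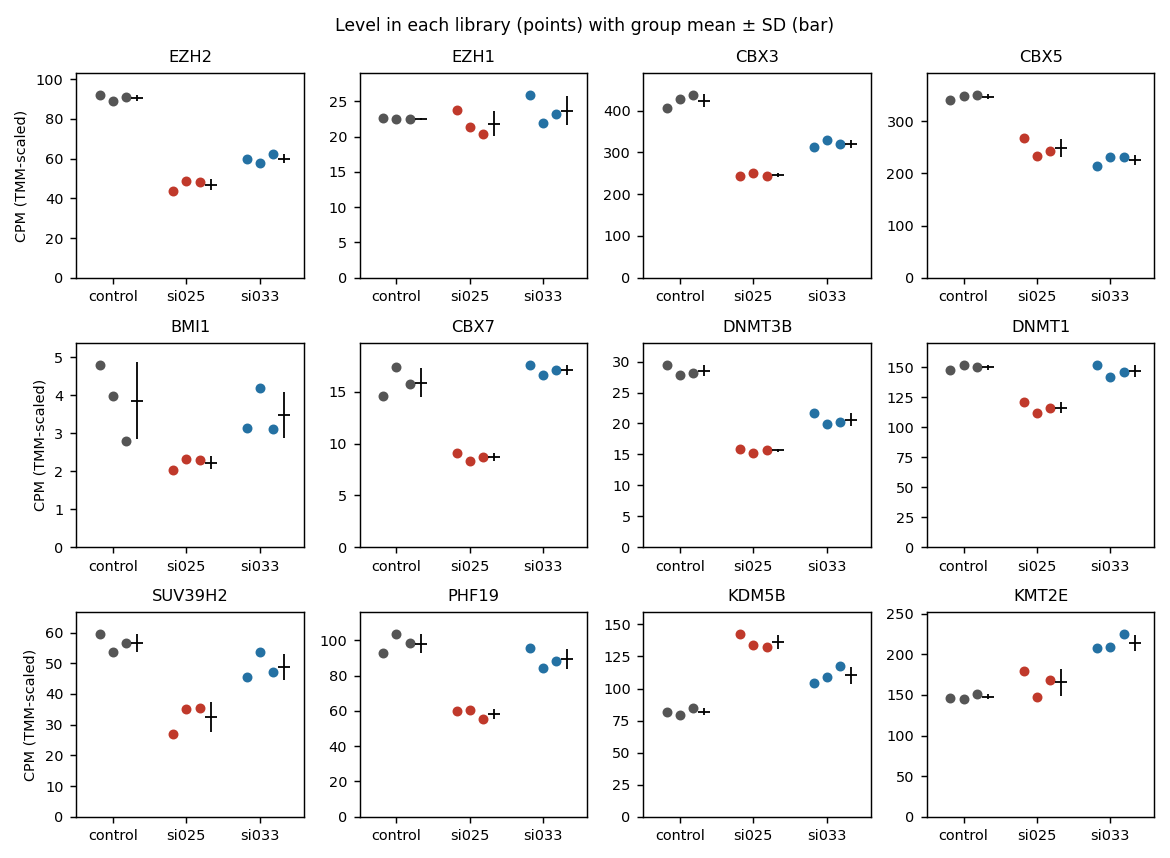
Level of 12 members in each library (y axis, TMM-scaled CPM starting at 0; 3 points per group) with group mean ± SD (bar). For *EZH2*, *CBX3*, *CBX5* and *DNMT3B* every control point lies above every siRNA point, for *CBX7* and *DNMT1* only si025 is low, and *KDM5B* is higher with both siRNAs.

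Since the paralogs had unequal fold changes, their make-up within a library was computed per length. Of the summed RPKM of *EZH1* and *EZH2*, *EZH2* made up 74.0 ± 0.290% in control, 60.3 ± 3.30% with si025 and 64.1 ± 1.88% with si033 (SD, n = 3). Of the HP1 sum, *CBX3* held 52.0 ± 0.957% in control, 43.2 ± 0.568% with si025 and 46.3 ± 0.363% with si033. *CBX1* held 36.3 ± 0.883% in control, 44.9 ± 0.533% with si025 and 44.8 ± 0.524% with si033, so that it was close to *CBX3* in both siRNA groups. Of the sum of *DNMT3A* and *DNMT3B*, *DNMT3B* held 44.4 ± 0.618% in control, 32.7 ± 0.0655% with si025 and 36.6 ± 0.554% with si033. For these shares no siRNA library reached the control range. Of the sum of the PRC1 readers *CBX2*, *CBX6*, *CBX7* and *CBX8*, *CBX7* held 7.87 ± 0.656% in control, 5.87 ± 0.162% with si025 and 8.95 ± 0.175% with si033, and *CBX2* held 19.1 ± 1.37% in control, 16.4 ± 0.990% with si025 and 21.4 ± 0.774% with si033. These are shares, so 1 member falling raises the rest, and they carry no test. The uncertainty in the level of *CBX3* carries over to the HP1 shares.

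**Figure D3:**
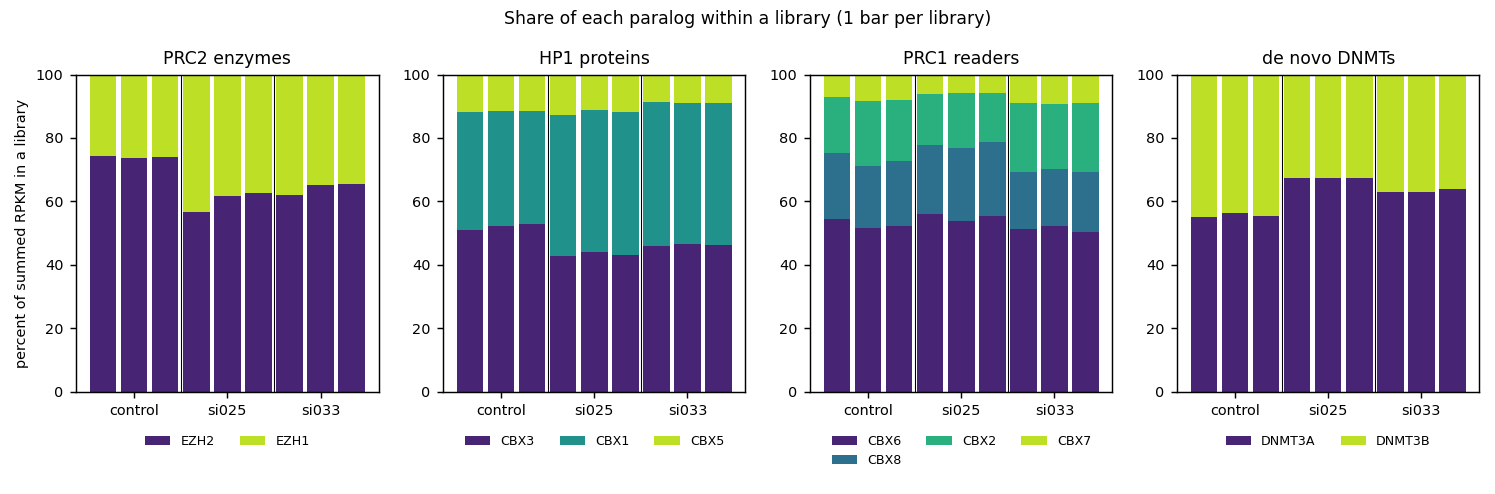
Percent of the summed RPKM (y axis) that each paralog held in each library (1 bar per library, 3 per group) for the PRC2 enzymes, the HP1 proteins, the PRC1 readers *CBX2*, *CBX6*, *CBX7* and *CBX8* and the de novo DNA methyltransferases. *EZH2* falls from 74.0% of its pair in control to 60.3% with si025 and 64.1% with si033.

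Of the enzymes that methylate H3K9, *SUV39H2* was at 59.4, 53.6 and 56.6 CPM in the control libraries, 27.02, 35.1 and 35.3 CPM with si025 and 45.4, 53.7 and 47.1 CPM with si033. The si025 libraries lay below all others, while 1 si033 library overlapped control. *SUV39H2* changed on the log2 scale by -0.78 (SE 0.08, adjusted p = 1.13e-08) with si025 and -0.22 (SE 0.08, adjusted p = 0.0196) with si033. With si033 this was lost without control replicates 1 or 3, or si033 replicates 1 or 3 (adjusted p up to 0.0987).

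*SUV39H1*, which makes the same mark in constitutive heterochromatin, was at 16.1, 13.8 and 15.1 CPM in the control libraries, 11.52, 10.97 and 10.4 CPM with si025 and 15.7, 13.5 and 13.2 CPM with si033. It was called lower with si025 at -0.46 (SE 0.09, adjusted p = 0.000136), its libraries lying below all others, and had -0.10 (SE 0.09, adjusted p = 0.331) with si033. *SETDB1*, which silences repeats, was at 97.3, 91.2 and 97.2 CPM in the control libraries, 94.9, 87.6 and 91.7 CPM with si025 and 97.7, 97.0 and 104 CPM with si033, with both siRNA groups overlapping control. *SETDB1* had log2 fold changes of -0.06 (SE 0.05, adjusted p = 0.283) with si025 and 0.07 (SE 0.05, adjusted p = 0.259) with si033, neither called. *EHMT1*, the partner of *EHMT2*, was called lower with si033 only, with a log2 fold change of -0.23 (SE 0.05, adjusted p = 0.000527), and had 0.01 (SE 0.05, adjusted p = 0.848) with si025. The listed partners of these enzymes, *TRIM28*, *ATF7IP* and *WIZ*, were all called lower with si025 (-0.41, -0.36 and -0.54), and with si033 they had -0.27, -0.19 and 0.25, all called.

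All 3 DNA methyltransferases fell with si025. *DNMT3B*, a de novo enzyme (chromosome 20, 32762385 to 32809356, plus strand), was at 29.5, 27.8 and 28.2 CPM in the control libraries, 15.9, 15.3 and 15.7 CPM with si025 and 21.8, 19.9 and 20.2 CPM with si033. Control was highest and si025 lowest, without overlap. *DNMT3B* changed on the log2 scale by -0.86 (SE 0.07, adjusted p = 1.35e-10) with si025 and -0.47 (SE 0.07, adjusted p = 2.10e-06) with si033, to 54.9% and 72.3% of control.

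*DNMT1*, the maintenance enzyme of replicating DNA, was at 147, 152 and 150.2 CPM in the control libraries, 121, 112 and 116 CPM with si025 and 152, 142 and 146 CPM with si033. Only si025 lay below control. *DNMT1* changed on the log2 scale by -0.37 (SE 0.05, adjusted p = 3.54e-07) with si025, and its si033 value was -0.03 (SE 0.05, adjusted p = 0.580). *DNMT3A* was at 55.2, 54.7 and 53.5 CPM in the control libraries, 49.99, 48.0 and 49.3 CPM with si025 and 56.7, 51.8 and 54.9 CPM with si033, with si025 again below control and si033 overlapping it. Its si025 value of -0.15 (SE 0.05, adjusted p = 0.0191) was lost without control replicate 1, or si025 replicate 2 (adjusted p up to 0.0575), and the si033 value was 0.01 (SE 0.05, adjusted p = 0.944). *UHRF1*, which guides *DNMT1* to newly copied DNA and is also in the S phase list below, had log2 fold changes of -1.07 with si025 and -0.53 with si033, and the thymine glycosylase *TDG* -0.99 with si025 and -0.45 with si033, all called.

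Genes of the cell cycle moved in the same libraries. Of the S phase genes in the Seurat package, 41 of 42 tested were lower with si025 and 35 with si033, with median log2 fold changes of -0.74 and -0.36. Of its G2M genes, 50 and 48 of 52 tested were lower, with medians of -0.63 and -0.42, and *CBX5* is one of them. Their part in the falls of *EZH2*, *CBX3*, *CBX5*, *SUV39H2* and the DNA methyltransferases was not tested.

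The H3K4 methyltransferases of the KMT2 and SETD1 families had small log2 fold changes in the main fit. The value of *KMT2A* was -0.11 with si025 and 0.15 with si033 (the latter called), *KMT2B* -0.13 with si025 and -0.17 with si033 (the latter called), *KMT2C* 0.02 with si025 and 0.04 with si033 (neither called), *KMT2D* -0.20 with si025 and 0.08 with si033 (the former called), *SETD1A* -0.19 with si025 and -0.10 with si033 (the former called) and *SETD1B* -0.04 with si025 and 0.20 with si033 (the latter called). These are long transcripts, and for *KMT2A*, *KMT2C*, *KMT2D*, *NSD1*, *SETD2* and *KDM5A* the library of si025 replicate 2 was the lowest of its group, as the longest genes were there in general. The *KMT2D* call was lost without control replicates 1 or 2, or si025 replicate 2, and under the DESeq2 Wald test (adjusted p up to 0.106). That of *SETD1A* was lost without control replicate 1 (adjusted p up to 0.0734). With si033, *KMT2A* was lost without control replicates 1, 2 or 3, or si025 replicate 3, or si033 replicates 2 or 3, and under RLE size factors or the DESeq2 Wald test (adjusted p up to 0.187), and *KMT2B* without control replicates 1 or 2, or si033 replicate 2, and under upper quartile normalization (adjusted p up to 0.123). *KMT2B* with si025 (adjusted p = 0.0504) was called in 11 of 18 alternatives. Over these alternatives, the lowest si025 values were -0.43 for *KMT2D*, -0.38 for *SETD1A*, -0.33 for *KMT2B*, -0.22 for *SETD1B* and -0.21 for *KMT2A*. That of *KMT2C* ranged from -0.07 to 0.14. With si025, *SETD1B* was called only under offsets for gene length and GC content (adjusted p = 1.03e-05). The same offsets lowered si025 values outside these families too, such as *KDM4B* (from -0.02 to -0.20) and *EHMT1* (from 0.01 to -0.13). Of the 12 tested genes listed as subunits or partners in the complexes of the KMT2 and SETD1 enzymes, 6 were lower and 1 higher with si025, and 3 lower and 2 higher with si033. Over all genes, 28.8% were lower and 32.9% higher with si025, and 27.8% and 26.9% with si033, so the si033 counts were not above that background. Of these genes, the core subunit *WDR5* had log2 fold changes of -0.41 with si025 and -0.04 with si033 (the former called) and *ASH2L* -0.27 with si025 and -0.19 with si033 (both called).

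The monomethyltransferase *SETD7* (chromosome 4, 139495934 to 139556769, minus strand), which methylates H3K4 and several other proteins, was at 199.8, 192 and 197 CPM in the control libraries, 251, 218 and 247 CPM with si025 and 96.7, 104 and 105 CPM with si033. The groups separated fully, si025 above and si033 below control, at 121% and 52.0% of control. *SETD7* changed on the log2 scale by 0.28 (SE 0.05, adjusted p = 5.24e-05) with si025 and -0.94 (SE 0.05, adjusted p = 8.04e-13) with si033, a difference of 1.22 (SE 0.05, adjusted p = 3.37e-15) between the siRNAs.

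*KDM7A*, a demethylase of H3K9 and H3K27, was at 32.5, 29.6 and 32.8 CPM in the control libraries, 51.9, 47.0 and 53.5 CPM with si025 and 24.1, 29.4 and 27.5 CPM with si033. All si025 libraries lay above and all si033 libraries below control, the latter by a small margin. *KDM7A* changed on the log2 scale by 0.68 (SE 0.07, adjusted p = 9.89e-09) with si025 and -0.23 (SE 0.07, adjusted p = 0.0128) with si033, a difference of 0.90 (SE 0.07, adjusted p = 9.85e-11). The si033 value was lost without control replicate 3, or si033 replicate 1 (adjusted p up to 0.0876).

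*KDM6B* (JMJD3), which removes methyl groups from H3K27, was at 38.0, 37.8 and 35.5 CPM in the control libraries, 45.2, 40.7 and 39.0 CPM with si025 and 34.1, 30.2 and 32.8 CPM with si033. The groups did not overlap, si025 being highest and si033 lowest. *KDM6B* changed on the log2 scale by 0.16 (SE 0.06, adjusted p = 0.0301) with si025 and -0.19 (SE 0.07, adjusted p = 0.0203) with si033, a difference of 0.35 (SE 0.06, adjusted p = 6.15e-05). With si025 its call was lost without control replicate 3, or si025 replicate 1, and under the DESeq2 Wald test or offsets for gene length and GC content (adjusted p up to 0.520), the offsets turning its sign (-0.04), and with si033 without control replicates 1 or 2, or si033 replicate 2, and under upper quartile normalization (adjusted p up to 0.0840). *KDM6A* (UTX), which removes the same mark, had log2 fold changes of -0.09 with si025 and -0.00 with si033, neither called.

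*SETD5*, a SET domain protein that works with histone deacetylase corepressors, was at 358, 361 and 354 CPM in the control libraries, 352, 309 and 328 CPM with si025 and 381, 389 and 402 CPM with si033. The si025 libraries lay below control and the si033 libraries above, without overlap. *SETD5* changed on the log2 scale by -0.12 (SE 0.05, adjusted p = 0.0264) with si025 and 0.13 (SE 0.05, adjusted p = 0.0213) with si033, a difference of -0.25 (SE 0.05, adjusted p = 6.10e-05). Its si025 call was lost without control replicates 1 or 2, or si025 replicates 2 or 3, and under upper quartile normalization (adjusted p up to 0.142), and its si033 call without control replicate 3, or si033 replicate 3 (adjusted p up to 0.105). *SETD9* was low, at 5.59, 5.07 and 6.30 CPM in the control libraries, 4.13, 4.47 and 4.73 CPM with si025 and 6.76, 7.58 and 7.39 CPM with si033, in the same order without overlap. *SETD9* changed on the log2 scale by -0.36 (SE 0.14, adjusted p = 0.0253) with si025 and 0.34 (SE 0.13, adjusted p = 0.0275) with si033, a difference of -0.70 (SE 0.13, adjusted p = 7.14e-05). Its calls were lost with si025 without control replicate 3, or si025 replicate 1, and under the DESeq2 Wald test (adjusted p up to 0.187) and with si033 without control replicates 1 or 2, or si033 replicates 2 or 3, and under the DESeq2 Wald test (adjusted p up to 0.0981). For all 5 of these genes the difference between the siRNAs was called in each of the 18 alternatives. Of the 62 tested members, 2 were thus called lower with si025 and higher with si033, and 3 the reverse. Over all genes tested these shares were 3.01% and 5.39%, so opposite calls were not particular to the members.

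**Figure D4:**
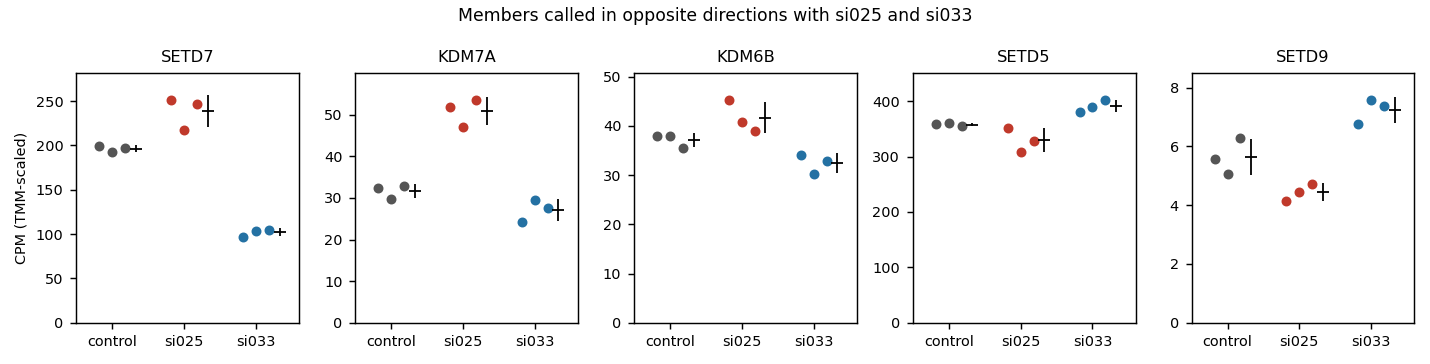
Level of the 5 members called in opposite directions with the siRNAs, in each library (y axis, TMM-scaled CPM starting at 0) with group mean ± SD (bar). *SETD7*, *KDM7A* and *KDM6B* are highest with si025 and lowest with si033, and *SETD5* and *SETD9* the reverse.

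Among the members called higher with both siRNAs was *KDM5B*, which removes methyl groups from H3K4. It was at 82.1, 79.2 and 84.6 CPM in the control libraries, 142, 134 and 132 CPM with si025 and 104, 109 and 118 CPM with si033. Control was lowest and si025 highest, without overlap. *KDM5B* changed on the log2 scale by 0.73 (SE 0.05, adjusted p = 4.24e-11) with si025 and 0.43 (SE 0.05, adjusted p = 4.01e-07) with si033, and the siRNAs differed by 0.30 (SE 0.05, adjusted p = 3.01e-05). Its paralog *KDM5D* was at 88.0, 86.8 and 86.4 CPM in the control libraries, 108, 103 and 104 CPM with si025 and 111, 103 and 111 CPM with si033. Both siRNA groups lay above control and overlapped each other. *KDM5D* changed on the log2 scale by 0.27 (SE 0.05, adjusted p = 4.12e-05) with si025 and 0.32 (SE 0.05, adjusted p = 5.59e-06) with si033. The remaining paralogs were not called, at -0.10 with si025 and 0.12 with si033 for *KDM5A* and 0.07 with si025 and 0.09 with si033 for *KDM5C*.

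*KMT5B*, which di- and trimethylates H4K20, was at 263, 258 and 278 CPM in the control libraries, 334, 319 and 341 CPM with si025 and 327, 334 and 347 CPM with si033. Its siRNA libraries lay above control and overlapped each other. *KMT5B* changed on the log2 scale by 0.31 (SE 0.04, adjusted p = 1.82e-06) with si025 and 0.33 (SE 0.04, adjusted p = 9.79e-07) with si033. The other enzymes of this lysine differed: *KMT5A*, which adds the first methyl group, had log2 fold changes of 0.02 with si025 and -0.44 with si033 (the latter called) and *KMT5C* -0.18 with si025 and 0.12 with si033 (neither called). *KMT2E*, a KMT2 family protein without known methyltransferase activity, was at 147, 145 and 151 CPM in the control libraries, 179.9, 148 and 168 CPM with si025 and 208, 208 and 225 CPM with si033. The si033 libraries lay highest, and 1 si025 library lay within the control range. *KMT2E* changed on the log2 scale by 0.16 (SE 0.06, adjusted p = 0.0195) with si025 and 0.53 (SE 0.06, adjusted p = 3.43e-08) with si033, with si025 lost without control replicates 1 or 2, or si025 replicates 1 or 3 (adjusted p up to 0.149).

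*KDM1A* (LSD1), which demethylates H3K4 and serves the androgen receptor as a cofactor, was at 224, 222 and 234 CPM in the control libraries, 214, 228 and 221 CPM with si025 and 237, 234 and 230.3 CPM with si033. Both siRNA groups overlapped control. *KDM1A* had log2 fold changes of -0.04 (SE 0.04, adjusted p = 0.482) with si025 and 0.04 (SE 0.04, adjusted p = 0.426) with si033, neither called. Its paralog *KDM1B* had log2 fold changes of -0.19 with si025 and -0.19 with si033, also not called.

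In the H3K9 demethylases, *KDM4D* was at 2.095, 2.25 and 2.63 CPM in the control libraries, 1.25, 0.744 and 1.46 CPM with si025 and 0.906, 0.619 and 0.725 CPM with si033, from 8 to 33 counts in the siRNA libraries and 24 to 68 in control. All siRNA libraries lay below control and overlapped each other. *KDM4D* changed on the log2 scale by -1.04 (SE 0.24, adjusted p = 0.000569) with si025 and -1.67 (SE 0.26, adjusted p = 1.06e-05) with si033. *KDM4C* was higher with si025 (0.23) and had 0.12 with si033, not called. *KDM4A* had log2 fold changes of -0.19 with si025 and -0.00 with si033 (the former called), *KDM4B* -0.02 with si025 and -0.24 with si033 (the latter called) and *KDM3B* -0.07 with si025 and -0.11 with si033 (the latter called). The *KDM3B* call was lost without control replicates 1, 2 or 3, or si033 replicates 1 or 2, and under upper quartile normalization or a stricter filter on low counts (adjusted p up to 0.114).

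*KDM2B*, which recruits a variant PRC1 to CpG islands and demethylates H3K36, had log2 fold changes of -0.51 (SE 0.05, adjusted p = 2.94e-08) with si025 and 0.06 (SE 0.05, adjusted p = 0.369) with si033, the latter not called. Its paralog *KDM2A* had log2 fold changes of -0.05 with si025 and 0.15 with si033 (the latter called). Of the H3K36 methyltransferases, *NSD1* changed on the log2 scale by -0.14 (SE 0.06, adjusted p = 0.0279) with si025, its libraries overlapping control. This call was lost without control replicates 1 or 3, or si025 replicate 2, and under upper quartile normalization (adjusted p up to 0.228). With si033 *NSD1* had 0.12 (SE 0.06, adjusted p = 0.0728), not called, although all si033 libraries lay above control, and it was called in 7 of the 18 alternatives. Between the siRNAs, *NSD1* differed by -0.26 (SE 0.06, adjusted p = 0.000269). *SETD2* had log2 fold changes of 0.04 with si025 and -0.09 with si033, neither called. *DOT1L*, the enzyme of H3K79, fell with each siRNA (-0.42 with si025 and -0.20 with si033). *SETD4* was called lower with si033 (-0.30) and had 0.03 with si025. *SETD3*, an actin methyltransferase (0.07 with si025 and -0.08 with si033), *SETD6*, which methylates a subunit of NF-kB (-0.03 with si025 and 0.15 with si033) and *KDM8* (-0.29 with si025 and -0.19 with si033) were not called.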

How the data were processed

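RNA-seq of VCaP cells was available as 9 files, 1 per library, grouped by sample title. The authors aligned read pairs to hg38 with HISAT2 2.1.0 (submitters' processing notes) and counted them with featureCounts 1.5.2 over exons, summed by gene symbol on the sense strand of a RefSeq annotation (file headers, where the study's methods name GENCODE). The authors deposited raw whole-number counts with no normalization. Pairs that mapped to several places or to several genes were left out under the program's defaults. The labels name a Promega extraction kit and the methods a Qiagen kit.

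Counts were tested with edgeR 4.0.16 in R 4.3.3 (quasi-likelihood test, TMM scaling, default expression filter, 12810 of 19918 genes kept). The model held a mean for each of the 3 groups over all 9 libraries. P-values of the 3 contrasts were adjusted by Benjamini-Hochberg over all tested genes, and a gene with adjusted p under 0.05 is called. The SE is the absolute log2 fold change over the square root of F. The biological coefficient of variation was 4.13%. RPKM is the TMM-scaled CPM per kilobase of exon. Sequences came from RefSeq (GRCh38.p14). P-values measure only the spread between these libraries, which may be technical. The fit was tested on simulated data. Alternatives used DESeq2 1.42.0, limma 3.58.1 and other settings. S phase and G2M lists came from Seurat 5.3.0.

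The members and lists were chosen with earlier results of these data known. Values per library are given for members called in opposite directions with the siRNAs, for the 5 called members with the largest rise and the 5 with the largest fall in each contrast against control, and for EZH1, EZH2, EED, SUZ12, RNF2, RING1, BMI1, the DNA methyltransferases, KDM1A, SUV39H1, SUV39H2, SETDB1 and the CBX genes reported. Some genes that the symbol rule or the lists would match are not reported here.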

Additional observations from a re-analysis of the deposited data

Results flagged for a closer look

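For 5 members the siRNAs gave called changes in opposite directions against control, and a test of si025 against si033 gave a called difference. These log2 differences were 1.22 for *SETD7*, 0.90 for *KDM7A*, 0.35 for *KDM6B*, -0.25 for *SETD5* and -0.70 for *SETD9*. *SETD7* was called with each siRNA in every alternative. Of the others, *KDM7A* kept its rise with si025 in every alternative, while at least 1 alternative left each of the remaining calls against control above the threshold, as given in the report.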

How the results depend on the processing

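In all, 18 alternatives were run: RLE and upper quartile scaling, no filter and a stricter filter on low counts, DESeq2, limma-voom, the groups of a contrast alone, a replicate block, offsets for gene length and GC content, and leaving out each of the 9 libraries. The count of members called, in either direction or in each, stayed within 1.5 times its value in all of them, except that 16 members were called higher with si033 under upper quartile normalization, where 10 had been. The share of all genes called higher under that normalization is not given here. Of the members called, 27 of 36 with si025, 20 of 32 with si033 and 37 of 44 between the siRNAs were called in every alternative. Of those not called, 13 of 26 with si025, 10 of 30 with si033 and 6 of 18 between the siRNAs were called in some alternative. With si025 these included *KDM4B* (-0.20, adjusted p = 0.000135) and *KDM2A* (-0.16, adjusted p = 1.17e-05), only under offsets for gene length and GC content. *RBBP7* with si033 was called in 6 of 18 alternatives. Offsets for gene length and GC content turned the sign of *EHMT1* with si025 to -0.13 (adjusted p = 0.000875), of *KDM6B* with si025 to -0.0362 (adjusted p = 0.520) and of *KMT2B* between the siRNAs to -0.11 (adjusted p = 0.00613), and the cause was not tested. Without si025 replicate 2, *KMT2C* and *SETD2* were called higher with si025.

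The replicate numbers gave no pairing: the correlations of same-numbered deviations lay between -0.02 and 0.07. With the replicate block, 37 members were called with si025, 32 with si033 and 44 between the siRNAs. Depth limits the members of few counts, such as *KDM4D* and *BMI1*, whose SE is 0.19 or more.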

Other observations

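Among further listed chromatin genes, of the 8 arginine methyltransferases tested, 3 were lower and 1 higher with si025, and 4 lower and 2 higher with si033. Over all genes, 28.8% were lower and 32.9% higher with si025, and 27.8% and 26.9% with si033. *PRMT5* had log2 fold changes of -0.43 with si025 and -0.15 with si033 and *PRMT1* -0.31 with si025 and -0.17 with si033, all called, and *PRMT2* was higher with both at 0.31 with si025 and 0.24 with si033. In the LSD1 complex, the corepressors *RCOR1* (0.21 with si025 and 0.64 with si033) and *RCOR2* (0.17 with si025 and 0.85 with si033) were called higher with si033, the deacetylases *HDAC1* (-0.02 with si025 and -0.28 with si033) and *HDAC2* (-0.21 with si025 and -0.14 with si033) were called lower with it, and their partner *KDM1A* was not called. Among the readers of methylated DNA, *MBD1* (0.24 with si025 and 0.27 with si033) and *MBD2* (0.17 with si025 and 0.64 with si033) were called higher with both siRNAs. In the deubiquitinase that removes the PRC1 mark, *ASXL1* (-0.32 with si025 and -0.11 with si033) was called lower with si025, *ASXL2* (-0.28 with si025 and -0.20 with si033) with both, and *BAP1* (0.02 with si025 and 0.09 with si033) was not called.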
